A study of Homo sapiens with 6 samples.

Results

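The proteasome genes of H2087-LCC cells were followed through 3 culture conditions. The genes were chosen by name alone, as every row of the expression table whose symbol consists of PSMA, PSMB, PSMC, PSMD, PSME, PSMF or PSMG and a number. This gave 47 of 21293 genes. Of the 47, 5 were kept apart from the rest: PSMB8, PSMB9 and PSMB10, the inducible catalytic subunits of the immunoproteasome, and PSME1 and PSME2, the subunits of its PA28 cap. A further 41 encode the constitutive particle, its caps, its inhibitor and its assembly chaperones. The remaining gene, PSMB11, encodes a thymus-restricted catalytic subunit, was listed at 0 or 1 in each of the 6 libraries and was not tested.

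H2087-LCC is a human lung adenocarcinoma line derived from a stage I tumor and selected in mice for its capacity to form dormant metastases. All 6 libraries come from this one derivative. Cells were incubated for 3 days with SB505124 (SB), which blocks the type I receptor for TGFβ and so gives a baseline free of the cells' own signaling, for 3 days with TGFβ, or for 7 days with TGFβ, and 2 libraries of poly(A) RNA per condition were sequenced. The study describes the 2 libraries of a condition as technical replicates, so p-values may cover technical spread only. There is no SB library at 7 days, so the effects of TGFβ and of time in culture cannot be told apart in the 7-day comparison with SB. In bulk RNA, fewer cells that express a gene and less of its RNA per cell cannot be told apart either.

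The proteasome is the ATP-dependent protease that degrades ubiquitin-tagged proteins. Its 20S core is a barrel of 4 stacked rings, with gated outer rings of α subunits and inner rings of β subunits, of which β1, β2 and β5 carry the caspase-like, trypsin-like and chymotrypsin-like active sites. The 19S cap recognizes ubiquitin chains, removes them and, with a ring of ATPases, unfolds and threads the substrate. Interferon-γ induces the inducible catalytic subunits, which take the places of β1, β2 and β5 in newly assembled particles, together with PA28, and the peptides that result are suited to presentation by MHC class I. Under proteotoxic stress the constitutive subunits are induced together by the transcription factor NRF1 (gene NFE2L1).

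The values are read counts per gene that the authors had scaled for library size and rounded, called normalized counts here. The columns summed to 34306283 to 36340734, but since they were already scaled these sums are not sequencing depths. The study's methods give one approximate number of raw reads for all samples and not the counted reads of each library. Differences are given as the difference of means of log2(normalized count + 1) with their standard error, and a gene was called higher or lower when its Benjamini-Hochberg adjusted p from limma, over the 14395 genes that averaged 10 or more, was under 0.05. A test of a single gene by exact permutation of 2 against 2 libraries cannot go below p = 0.333. All 5 immunoproteasome and PA28 genes and all 41 constitutive genes passed the filter. Of 5 epithelial markers, the keratin genes KRT8 and KRT19 were expressed in every library (KRT8 at 33341 to 42692 normalized counts) and were not called, while CDH1, EPCAM and KRT18 fell at both time points (CDH1 with log2 differences of -4.18 and -5.54). Of 5 leukocyte markers, PTPRC, CD3E and CD14 stood at 0 to 8, while CD74 was at 48 to 1236 and LCP1 at 739 to 3309.

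The SB libraries differed from each other in the genes described here. In SB replicate 1, 40 of the 41 constitutive genes were higher than in SB replicate 2, with a median difference of 0.18 on the log2 scale, against 0.006 over all genes tested. All 5 immunoproteasome and PA28 genes stood the other way, with a median of -0.23. The same was true of 12 of 15 tested regulators of the interferon response, such as IRF9, a subunit of the interferon-activated ISGF3 complex, at 713 and 1444. CD74, the MHC class II invariant chain that many carcinoma cells express under interferon, was at 249 and 1236. The TGFβ libraries showed less of this, with 26 constitutive genes higher in replicate 1 at 3 days and 19 at 7 days. Main results against SB are therefore also given with an SB library left out, but not for every single gene. The difference between 7 and 3 days of TGFβ uses neither SB library, although both enter the estimate of spread behind its test. Where a library is left out, the single library that remains in its group is taken to vary like those of the other groups.

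**Figure D1:**
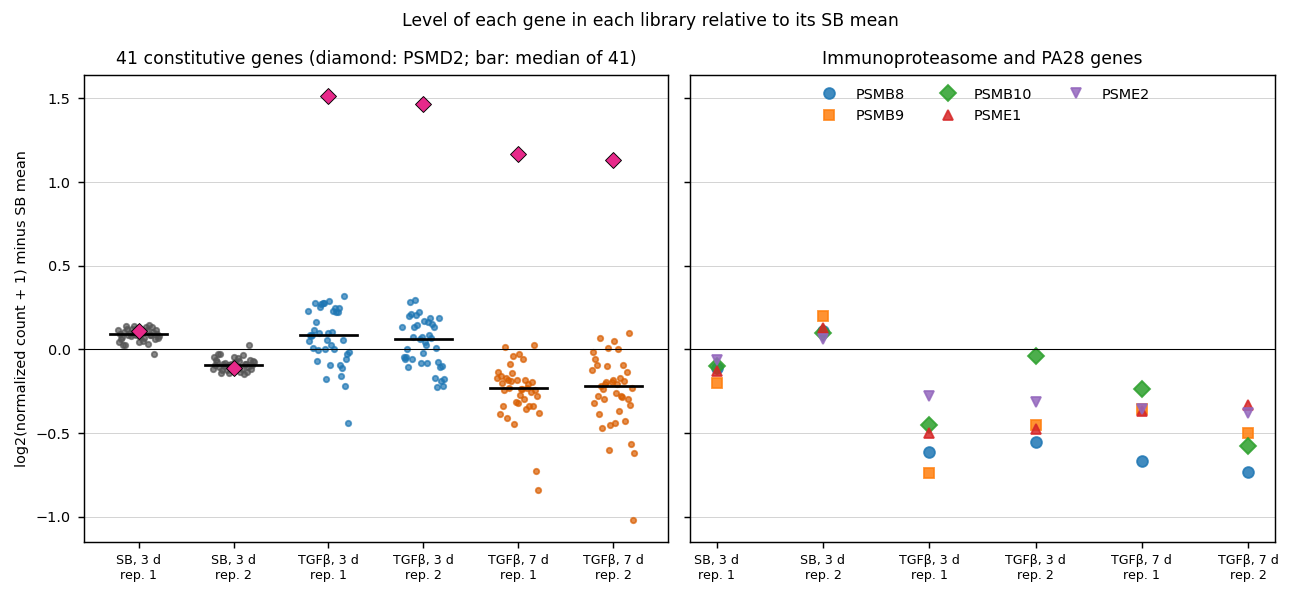
Each point is one gene in one library, as log2(normalized count + 1) minus the mean of the 2 SB libraries, so the SB points mirror each other by construction. Left, the 41 constitutive genes, with their median as a bar and PSMD2 as a diamond; the medians are 0.09 and -0.09 in SB, 0.088 and 0.064 at 3 days of TGFβ and -0.233 and -0.219 at 7 days. Right, the 5 immunoproteasome and PA28 genes.

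Immunoproteasome and PA28 genes were lower under TGFβ than under SB at both time points. Of the 5, 4 fell at 3 days and the same 4 fell at 7 days, while over all genes tested 14% were called lower at 3 days and 26.9% at 7 days. None of the 5 was called higher in either comparison by limma, nor was any at an unadjusted p under 0.05 (0 of 5), against 14.9% and 27.7% of all genes called higher. The median difference of the 5 from SB was -0.49 at 3 days and -0.41 at 7 days, with medians of -0.02 and -0.001 over all genes.

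The promoters of these genes are shown because the interferon-stimulated response element, the DNA element bound by interferon-activated factors, is the feature for which their induction is known. Sequences are from RefSeq (GRCh38.p14), which had entries for 41 of the 47 genes, each covering 250 bases before to 50 after a transcription start. Printed are 60 bases before to 20 after the start, in the direction of transcription. Capitals mark the core of the element, GAAA, any 2 bases and GAAA again, on either strand.
PSMB8, chr6:32844028-32844107, minus strand: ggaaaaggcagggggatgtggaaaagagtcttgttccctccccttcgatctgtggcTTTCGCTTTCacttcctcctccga
PSMB9, chr6:32854132-32854211, plus strand: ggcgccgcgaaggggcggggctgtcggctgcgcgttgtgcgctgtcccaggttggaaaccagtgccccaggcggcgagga
PSMB10, chr16:67936831-67936910, minus strand: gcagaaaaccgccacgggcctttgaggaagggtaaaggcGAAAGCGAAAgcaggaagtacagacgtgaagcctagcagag
PSME1, chr14:24136134-24136213, plus strand: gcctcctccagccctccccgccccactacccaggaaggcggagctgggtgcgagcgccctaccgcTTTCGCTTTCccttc
PSME2, chr14:24146591-24146670, minus strand: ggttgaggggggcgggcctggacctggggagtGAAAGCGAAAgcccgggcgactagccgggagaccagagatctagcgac

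The core was found in 4 of these 5 genes, in each case beginning within 28 bases of the start, and in 3 of the 35 constitutive genes with an entry (PSMA4, PSMB4 and PSMG4). Of all genes with an entry, 4.38% held it. In all 4 genes the match was the same 10 letters, GAAAGCGAAA, read forward in PSMB10 and PSME2 and on the opposite strand in PSMB8 and PSME1. These exact letters, singled out after the match was seen, stood in 35 promoter entries (0.0997%), PSMG4 included. The PSMB8 match belongs to one of its 2 annotated starts, and the window of PSMB9 held none. A match describes letters in a window and is no evidence of binding.

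PSMB8 encodes β5i, the inducible form of the chymotrypsin-like subunit, and lies in the MHC class II region (GRCh37, chr6:32808494-32812456). Its normalized counts were 3135 and 3665 in SB, 2216 and 2309 at 3 days and 2138 and 2041 at 7 days. Every TGFβ library was below both SB libraries. The log2 difference from SB was -0.58 ± 0.098 (SE; adjusted p = 0.000862) at 3 days and -0.70 ± 0.098 (adjusted p = 9.87e-05) at 7 days, or 0.665 and 0.615 of the SB mean. Without SB replicate 2, where it was highest, the differences were -0.47 and -0.58 and both calls stood.

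PSMB9, the inducible β1i (chr6:32811913-32827628), was at 829 and 1094 in SB, 570 and 697 at 3 days and 743 and 674 at 7 days. Both TGFβ groups lay below SB, but the SB pair was wide. PSMB9 fell by 0.59 ± 0.15 (SE) on the log2 scale at 3 days (adjusted p = 0.0112) and by 0.43 ± 0.15 at 7 days (adjusted p = 0.0299). Without SB replicate 2 the differences were -0.40 (adjusted p = 0.0877) and -0.23 (adjusted p = 0.231), and neither was called.

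PSMB10, the inducible β2i (chr16:67968409-67970767), had the lowest counts of the 5, at 491 and 564 in SB, 384 and 513 at 3 days and 446 and 352 at 7 days. At 3 days its values overlapped those of SB and at 7 days they lay below them. The differences, -0.25 ± 0.17 (SE; adjusted p = 0.306) and -0.41 ± 0.17 (adjusted p = 0.0588), were not called, and their 95% intervals ran from -0.61 to 0.12 and from -0.78 to -0.04.

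The PA28 cap, a ring of PSME1 and PSME2 products that opens the 20S gate without ATP or ubiquitin, was also lower. PSME1 (chr14:24605372-24608176) was at 4210 and 5030 in SB, 3261 and 3309 at 3 days and 3566 and 3657 at 7 days. It fell by 0.49 ± 0.097 (SE) at 3 days (adjusted p = 0.00267) and by 0.35 ± 0.097 at 7 days (adjusted p = 0.00909). Without SB replicate 2 the 3-day call stood at -0.36 and the 7-day difference, -0.22, was no longer called (adjusted p = 0.0584). PSME2 (chr14:24612571-24616779) was at 4825 and 5281 in SB, 4162 and 4055 at 3 days and 3937 and 3883 at 7 days. Its log2 differences were -0.30 ± 0.084 (adjusted p = 0.0201) and -0.37 ± 0.084 (adjusted p = 0.00293), and without SB replicate 2 the first was lost, at -0.23 (adjusted p = 0.0796). PSME2 has 6 named pseudogenes in GENCODE 44, and PSME1 shares exon bases with EMC9 on the other strand; the library kit does not mark strand, so reads of such partners cannot be told apart.

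Between 3 and 7 days of TGFβ none of the 5 was called by limma, and 0 had an unadjusted p under 0.05. Their differences ran from -0.16 for PSMB10 to 0.17 for PSMB9, with adjusted p values of 0.302 to 0.548. The interval for PSMB9, from -0.16 to 0.49, leaves room for a change in either direction.

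The standard catalytic subunits that the inducible ones replace are set beside them here. PSMB5 (β5) was at 7809 and 6824 in SB, 7823 and 7997 at 3 days and 6213 and 5956 at 7 days. PSMB6 (β1) was at 4184 and 3753, 4725 and 4869, and 3724 and 3436. PSMB7 (β2) was at 4064 and 3432, 4504 and 4301, and 3282 and 3270. At 3 days these 3 genes were above both SB libraries in both TGFβ libraries, although PSMB6 alone was called (0.28 ± 0.090, adjusted p = 0.038). That call was lost in several alternatives, such as without the filter (limma adjusted p = 0.0786) or with equal library totals (0.0715). Without SB replicate 2 the PSMB6 difference was 0.20. At 7 days all 3 lay below both SB libraries, and PSMB5 was called (-0.26 ± 0.087, adjusted p = 0.0234). Without SB replicate 1 the PSMB5 difference was -0.17. How many of all genes show such a separation of 2 from 2 libraries was not counted. For a single gene such a separation gives no less than p = 0.333 by exact permutation. From 3 to 7 days all 3 fell, by 0.38, 0.42 and 0.43 on the log2 scale, with adjusted p values of 0.00687, 0.00438 and 0.00605. Over all genes 16.2% were called lower in that comparison.

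**Figure D2:**
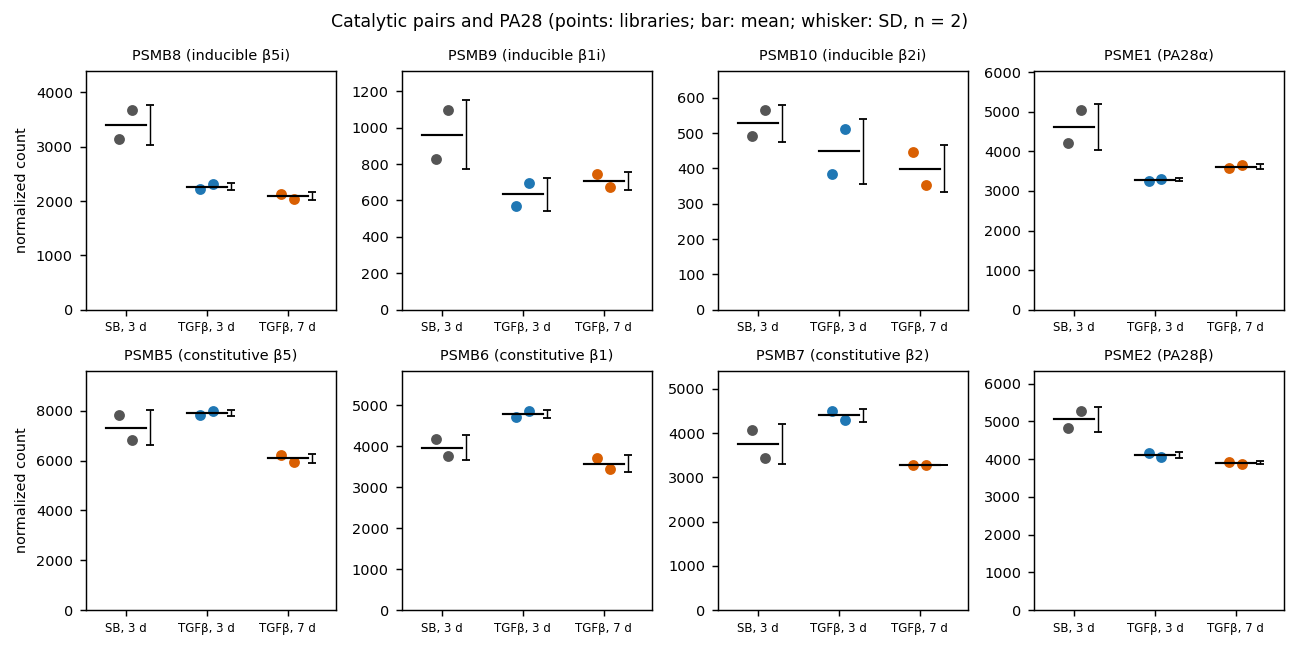
Normalized count in each library (points) with the group mean (bar) and SD (whisker, n = 2), each panel on its own scale from 0, for the inducible catalytic subunits above their standard counterparts and for PA28. PSMB8 drops from 3135 and 3665 in SB to between 2041 and 2309 in the 4 TGFβ libraries, and PSMB5, PSMB6 and PSMB7 are highest at 3 days of TGFβ.

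Divided by the length of the canonical transcript, the inducible subunit made up a minority of each pair in every library. PSMB8 was 27.2% and 33.3% of the sum of PSMB8 and PSMB5 per kilobase in SB, 20.8% and 21.1% at 3 days, and 24.2% and 24.1% at 7 days. PSMB9 was 13.8% and 19.1% of its sum with PSMB6 in SB, 8.9% and 10.4% at 3 days, and 13.9% and 13.7% at 7 days. The 3-day shares of both were below all others, and those of PSMB9 at 7 days lay at the lower SB value. PSMB10 was 10.8% and 14.2% of its sum with PSMB7 in SB, 7.91% and 10.7% at 3 days, and 12.0% and 9.78% at 7 days. These are shares of RNA, given without a test.

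Few of the 41 constitutive genes were called at 3 days, and many were lower at 7. At 3 days of TGFβ 4 were called higher than in SB and none lower by limma, 11 and 1 at an unadjusted p under 0.05, with a median log2 difference of 0.04 that ran from -0.05 to 0.12 when a library was left out. PSMB1, PSMB6, PSMD2 and PSME4 were the 4, or 9.76% of the constitutive genes, fewer than the 14.9% called higher over all genes. At 7 days 1 was higher (PSMD2), 20 were lower and 20 were not called. The share called lower, 48.8%, stands beside 26.9% of all genes, and the share called higher, 2.44%, beside 27.7%. The median was -0.25 and 37 of 41 lay below 0. Directly between 3 and 7 days, 26 of 41 fell, none was called higher (0 also at an unadjusted p under 0.05) and 40 of 41 lay below 0, with a median of -0.31 against 0.02 over all genes. The share called lower, 63.4%, compares with 16.2% of all genes in that comparison, where 17.0% were called higher.

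**Figure D3:**
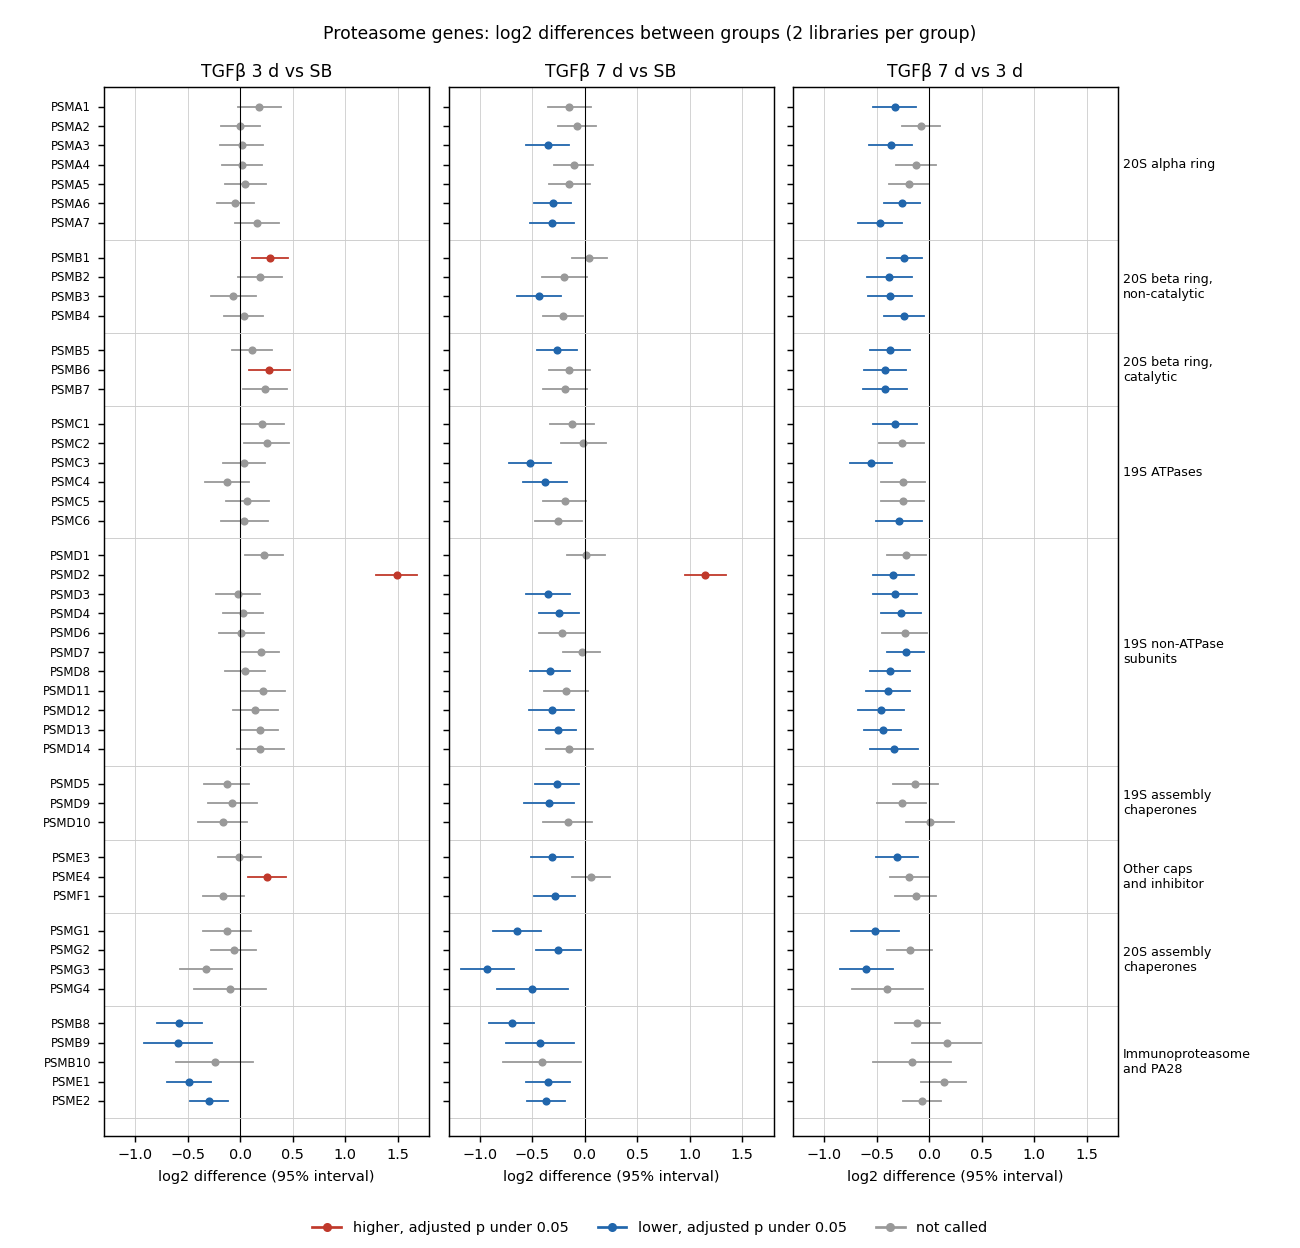
log2 difference with its 95% interval for the 46 tested proteasome genes, grouped by role, in the 3 comparisons; red and blue mark genes called higher and lower by limma at an adjusted p under 0.05. In the right panel 40 of the 41 constitutive genes lie left of 0, while PSMD2 stands alone at 1.49 and 1.15 in the comparisons with SB.

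The number of calls depended on the SB libraries and on the model. So did the excess of the 7-day share called lower than SB over that of all genes. With no intensity trend in limma, 10 of the 41 constitutive genes were lower, beside 3453 of 14395 genes, which are similar shares. When SB replicate 1 or 7-day replicate 2 was left out, the constitutive share lay below that of all genes. It stayed above when SB replicate 2 or 7-day replicate 1 was left out. Without SB replicate 1 the 7-day count of lower genes was 8 and the median -0.14, and without SB replicate 2 the count was 30. Without 7-day replicate 1 it was 11, and without 7-day replicate 2 it was 6. For 7 against 3 days the count was 11 without the filter, beside 1497 of 19977 genes, and 7 without the trend, beside 1410 of 14395. It also moved when a library was left out, and so did the number called over all genes. In each of these cases the constitutive share called lower stayed above that of all genes. Every alternative left the constitutive median below 0 at 7 days, and PSMB3, PSMC3, PSMG1 and PSMG3 were called lower than SB in each. For 7 against 3 days the median ran from -0.33 to -0.28 when a library was left out, and PSMC3, PSMD12, PSMD13, PSMG1 and PSMG3 were called in every alternative. At 3 days the share called higher, below that of all genes with all 6 libraries, lay above it without SB replicate 1. Among the 4 genes called higher at 3 days only PSMD2 was called under every alternative.

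In the α ring, which forms the gate of the core, none of 7 genes was called at 3 days (0 at an unadjusted p under 0.05). Against SB at 7 days 3 fell (PSMA3, PSMA6 and PSMA7), or 42.9%, and between 3 and 7 days 4 fell, or 57.1%. Over all genes, here and for the role groups below, 14.9% were called higher and 14% lower at 3 days. At 7 days 26.9% were lower, and between 3 and 7 days 16.2%. With so few genes per role group, such shares are coarse. PSMA3 had the lowest 7-day value, with normalized counts of 5456 and 4817 in SB, 5454 and 4921 at 3 days and 3917 and 4106 at 7 days (-0.35 ± 0.093, adjusted p = 0.0069, against SB). PSMA2 had the highest, at 8200 and 7678, 8208 and 7687, and 7236 and 7836, and was not called in any comparison.

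All 4 non-catalytic β genes fell between 3 and 7 days, by 0.24 to 0.38 on the log2 scale. PSMB3 was at 4438 and 3740 in SB, 3877 and 3912 at 3 days and 3067 and 2948 at 7 days, and was the only one of the 4 called against SB at 7 days (-0.44 ± 0.096, adjusted p = 0.0023). PSMB1 rose first, from 6513 and 6293 to 7748 and 7807 (0.28 ± 0.078, adjusted p = 0.0181), and at 6476 and 6723 overlapped SB at 7 days (0.04, adjusted p = 0.657).

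The 19S ATPases PSMC1 to PSMC6 form the ring that unfolds substrates and opens the α gate. None was called at 3 days (2 were higher at an unadjusted p under 0.05), PSMC3 and PSMC4 fell against SB at 7 days, and PSMC1, PSMC3 and PSMC6 fell between 3 and 7 days. PSMC3 changed most, from 9087 and 8018 in SB and 8550 and 8922 at 3 days to 6264 and 5632 at 7 days. This was 0.695 of the SB mean (-0.52 ± 0.091, adjusted p = 0.000474) and 0.681 of the 3-day mean. PSMC2 had the highest 7-day value, at 4934 and 5100 against 5586 and 4589 in SB, a difference of -0.01 ± 0.099.

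Of the 11 non-ATPase subunits, which include ubiquitin receptors such as PSMD2 and PSMD4, the scaffold PSMD1 and the deubiquitinase PSMD14, 9 fell between 3 and 7 days. PSMD1 and PSMD6 were the exceptions, at -0.22 and -0.23 with adjusted p values of 0.0637 and 0.0903. Against SB at 7 days 5 were lower, PSMD3 furthest (5208 and 4689 in SB, 4631 and 5093 at 3 days, 4091 and 3651 at 7 days; -0.35 ± 0.096, adjusted p = 0.00799). PSMD14 stood at -0.15 ± 0.10 (adjusted p = 0.25) and was called only between 3 and 7 days (-0.34 ± 0.10, adjusted p = 0.0265).

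Assembly chaperones held the lowest values. The 4 genes PSMG1 to PSMG4, which help to build the α ring, all fell against SB at 7 days, with a median of -0.57. PSMG3 was at 1849 and 1677 in SB, 1300 and 1512 at 3 days and 985 and 867 at 7 days, so that the 3 conditions did not overlap. It fell by 0.93 ± 0.11 (SE) against SB at 7 days (adjusted p = 3.59e-05), to 0.525 of the SB mean, while its 3-day difference of -0.33 just missed the threshold (adjusted p = 0.0503). PSMG1 was at 3648 and 3110, 3235 and 2951, and 2035 and 2281 (-0.64 ± 0.11, adjusted p = 0.000301). PSMG2, at 2076 and 1826, 1913 and 1815, and 1608 and 1663, changed least of the 4 (-0.25 ± 0.098, adjusted p = 0.0475). The PSMG2 call was lost in several alternatives, such as without the filter (limma adjusted p = 0.0671) or without the trend (0.0954). Without SB replicate 1 the PSMG2 difference was -0.16. The chaperones of the 19S base behaved less uniformly. Against SB at 7 days PSMD5 and PSMD9 fell (-0.26 and -0.34), PSMD10, also known as gankyrin, was not called (-0.16, adjusted p = 0.207), and between 3 and 7 days none of the 3 was called (1 was lower at an unadjusted p under 0.05).

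The other caps and the inhibitor split. PSME3, which encodes the nuclear PA28γ, fell at 7 days from 9052 and 7810 in SB and 8750 and 7994 at 3 days to 6658 and 6850 (-0.32 ± 0.092, adjusted p = 0.0121). PSME4, which encodes the cap PA200, rose at 3 days from 8316 and 8628 to 10580 and 9661 (0.26 ± 0.082, adjusted p = 0.0355). At 8630 and 9053 it was not called at 7 days. Its 3-day call was lost in several alternatives, such as without the filter (limma adjusted p = 0.0687) or with equal library totals (0.0713). Without 3-day replicate 1 the PSME4 difference at 3 days was 0.19. PSMF1, the inhibitor PI31, fell against SB at 7 days (-0.29 ± 0.089, adjusted p = 0.0166).

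PSMD2, the large 19S base subunit Rpn1 that serves as a docking site for ubiquitin-like domains, stood apart from every other constitutive gene. It lies on the plus strand (GRCh37, chr3:184016986-184026838). Its normalized counts were 31024 and 26553 in SB, 82066 and 79308 at 3 days and 64481 and 62835 at 7 days. No library of one condition overlapped another condition. Against SB it rose 2.8-fold at 3 days (log2 difference 1.49 ± 0.088, adjusted p = 1.97e-07) and 2.21-fold at 7 days (1.15 ± 0.088, adjusted p = 7.6e-07), and between the time points it fell by 0.34 ± 0.088 (adjusted p = 0.0123). With either SB library left out the 3-day difference was 1.38 or 1.60. The next constitutive gene, PSMB1, reached 0.28 at 3 days.

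Ranked by size, the PSMD2 increase at 3 days was 7th of the 238 genes that averaged 20000 normalized counts or more. Over all 14395 genes it was 376th. PSMD2 supplied 11.1% and 10.5% of the summed counts of the 47 genes in SB, 24.7% and 24.6% at 3 days and 24.2% and 23.6% at 7 days. Per kilobase of transcript it was already 9115 and 10650 in SB, against 2211 and 2353 for PSMD1, the other large base subunit, and it reached 27230 and 28170 at 3 days, with PSMD1 at 2565 and 2788. The proteins of both stand once in each 19S cap, and no value here measures protein. Together the 47 genes held 0.795% and 0.735% of all counts in SB, 0.913% and 0.898% at 3 days and 0.744% and 0.74% at 7 days. Without PSMD2 these shares were 0.707% and 0.657%, 0.687% and 0.677%, and 0.563% and 0.565%.

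The neighbours of PSMD2 did not move as a block. Of 11 other genes within 100 kb in the table, 7 were tested. At 3 days CAMK2N2 was higher (1.03, adjusted p = 0.00719) and CLCN2 lower (-0.50, adjusted p = 0.0175). Over all genes 14.9% were called higher and 14% lower at 3 days, so these counts do not stand out. At 7 days CAMK2N2 was higher (2.11, adjusted p = 1.95e-05). CLCN2 (-0.68, adjusted p = 0.00137), POLR2H (-0.32, adjusted p = 0.0125) and EIF4G1 (-0.29, adjusted p = 0.0173) were lower at 7 days. ALG3, ECE2 and FAM131A were not called at either time. CAMK2N2 was a low gene, at 42 and 32 normalized counts in SB, 67 and 86 at 3 days and 182 and 143 at 7 days. EIF4G1, the next protein-coding gene downstream, was at 47278 and 52818 in SB and 49812 and 55060 at 3 days (0.07, adjusted p = 0.621). GENCODE 44 lists neither a named pseudogene of PSMD2 nor exon bases shared with another gene.

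**Figure D4:**
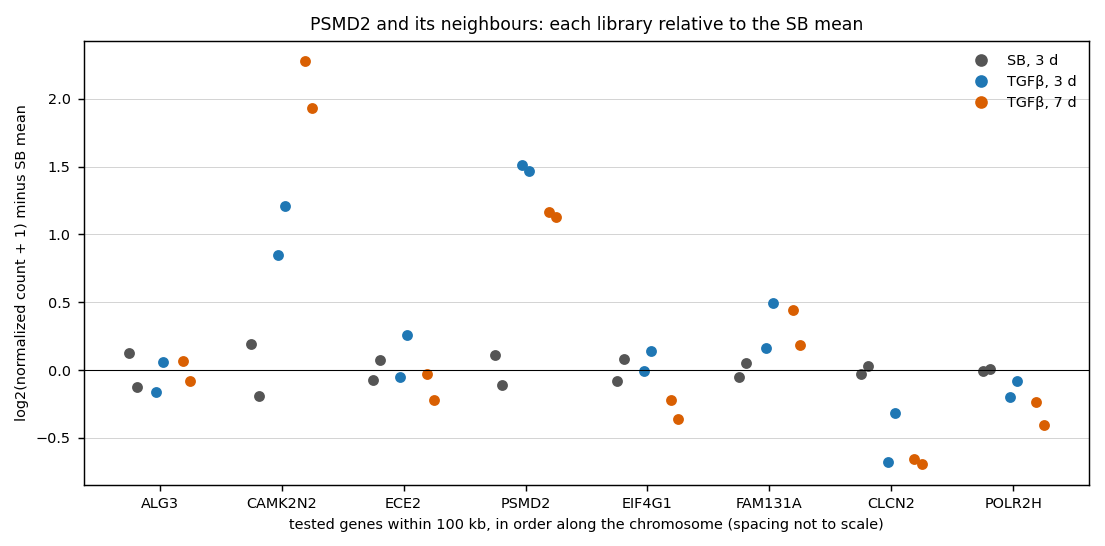
log2(normalized count + 1) of each library minus the SB mean for PSMD2 and the 7 tested genes within 100 kb, in chromosomal order. PSMD2 lies near 1.5 at 3 days and near 1.15 at 7 days in both libraries; of the flanking genes only CAMK2N2 is also above 1, at low counts.

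The main start of PSMD2 is printed to show what its proximal promoter holds. Capitals mark a GC box, GGGCGG, the element bound by SP1; the whole window of 250 bases before to 50 after the start held 3 of them, and 48.3% of all genes with an entry have at least 1.
PSMD2, chr3:184299181-184299260 (GRCh38.p14), plus strand: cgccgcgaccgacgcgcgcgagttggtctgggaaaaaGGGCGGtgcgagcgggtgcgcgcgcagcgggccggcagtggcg

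Across the 35 constitutive genes with an entry, a GC box was found in 24, the CCAAT box in 18 (51.4%, against 39.7% of all genes with an entry) and the antioxidant response element core, TGACNNNGC, to which NRF1 and NRF2 bind, in 12 (34.3%, against 16.1% of all genes with an entry). The last was present in 8 of the 17 that fell against SB at 7 days and in 4 of the other 18. It was also present in 3 of the 5 immunoproteasome and PA28 genes (PSMB9, PSME1 and PSME2). PSMD2 had none in its windows. The palindromic SMAD element GTCTAGAC was found in none of the constitutive and none of the immunoproteasome and PA28 windows, and in 0.256% of all genes with an entry. Both strands were searched and matches of different elements could overlap.

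Genes that work with the proteasome were followed as a fixed list of 23 cofactors and regulators. At 3 days 1 was higher and 1 lower, at 7 days 3 were higher and 7 lower, and between the time points 1 was higher and 5 lower. These shares were below those of all genes at 3 days (4.35% each way, against 14.9% higher and 14% lower). At 7 days 13.0% were higher and 30.4% lower, against 27.7% and 26.9% of all genes, and between the time points 4.35% and 21.7%, against 17.0% and 16.2%. UCHL5, a deubiquitinase of the 19S cap, fell at 7 days from 8436 and 7564 in SB to 4822 and 5166 (-0.68 ± 0.090, adjusted p = 5.98e-05). Its docking partner ADRM1, also a ubiquitin receptor, fell from 2088 and 1979 to 1474 and 1149 (-0.64 ± 0.16, adjusted p = 0.00433). The shuttle factor UBQLN4, which carries ubiquitinated proteins to the proteasome, fell at 3 days (-0.83 ± 0.093, adjusted p = 3.92e-05) and stayed lower than SB at 7 days (-0.73). VCP, the ATPase that extracts ubiquitinated proteins from membranes and complexes, rose at both times (0.49 and 0.38). NFE2L1 was at 9197 and 9817 in SB, 9530 and 10216 at 3 days and 11454 and 10440 at 7 days, and was not called (0.05 and 0.20, adjusted p = 0.671 and 0.0611). POMP, which completes 20S assembly, stood at 0.26 against SB at 3 days (adjusted p = 0.053) and -0.28 between 3 and 7 days (adjusted p = 0.0339).

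Of the 6 genes for ubiquitin and its activating enzymes, 1 was higher and 3 were lower at 7 days, where 27.7% of all genes were higher and 26.9% lower. RPS27A, which encodes ubiquitin fused to a ribosomal protein, was at 22726 and 20169 in SB, 20961 and 19704 at 3 days and 13357 and 13802 at 7 days (-0.66 ± 0.084, adjusted p = 4.86e-05). UBB, a polyubiquitin gene, fell as well (-0.38), and the E1 enzyme UBA6 rose (0.41).

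The immunoproteasome genes were then set beside 13 further genes of MHC class I antigen processing. At 3 days 4 of the 13 were higher and 5 lower, at 7 days 8 were higher and 2 lower, and between the time points 6 rose and 1 fell. The shares higher and lower were 30.8% and 38.5% at 3 days (14.9% and 14% of all genes), 61.5% and 15.4% at 7 days (27.7% and 26.9%), and 46.2% and 7.69% between the time points (17.0% and 16.2%). The peptide transporter genes TAP1 and TAP2, which lie beside PSMB8 and PSMB9 in the MHC class II region, were the 2 that were lower at 7 days. TAP1 was at 1203 and 1582 in SB, 804 and 878 at 3 days and 843 and 776 at 7 days, with differences of -0.71 ± 0.13 (adjusted p = 0.0018) and -0.77 ± 0.13 (adjusted p = 0.000466). Without SB replicate 2 these were -0.52 and -0.57 and remained called. TAP2 fell by 0.29 ± 0.080 at 3 days and by 0.51 ± 0.080 at 7 days. Its 3-day call was lost without 3-day replicate 1 or 2 (-0.31 and -0.27, limma adjusted p = 0.0789 and 0.11) and without the intensity trend (adjusted p = 0.0689). All 4 genes of this cluster, PSMB8, PSMB9, TAP1 and TAP2, were called lower than SB at both times with all 6 libraries, but PSMB9 in neither comparison without SB replicate 2.

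The class I molecules themselves took another course. B2M, the shared light chain, was at 61251 and 73393 in SB, 54023 and 49531 at 3 days and 85149 and 90935 at 7 days. It fell by 0.37 ± 0.098 at 3 days (adjusted p = 0.0135), rose by 0.39 ± 0.098 against SB at 7 days (adjusted p = 0.005) and rose by 0.77 between 3 and 7 days. HLA-B followed, with 4607 and 7340, 4111 and 4295, and 10448 and 9795, and rose by 1.27 ± 0.16 between the time points (adjusted p = 0.000219). Without SB replicate 2 the 3-day decreases of B2M and HLA-B were no longer called (-0.24 and -0.13). HLA-C and TAPBP, the latter encoding the peptide editor tapasin, rose between 3 and 7 days as well (0.85 and 0.86). The trimming and folding factors ERAP2 and PDIA3 were higher than SB at both times (0.63 and 0.64, and 0.41 and 0.64). Reads of the polymorphic and mutually similar HLA genes may be split by the authors' unique mapping, so their levels are uncertain.

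**Figure D5:**
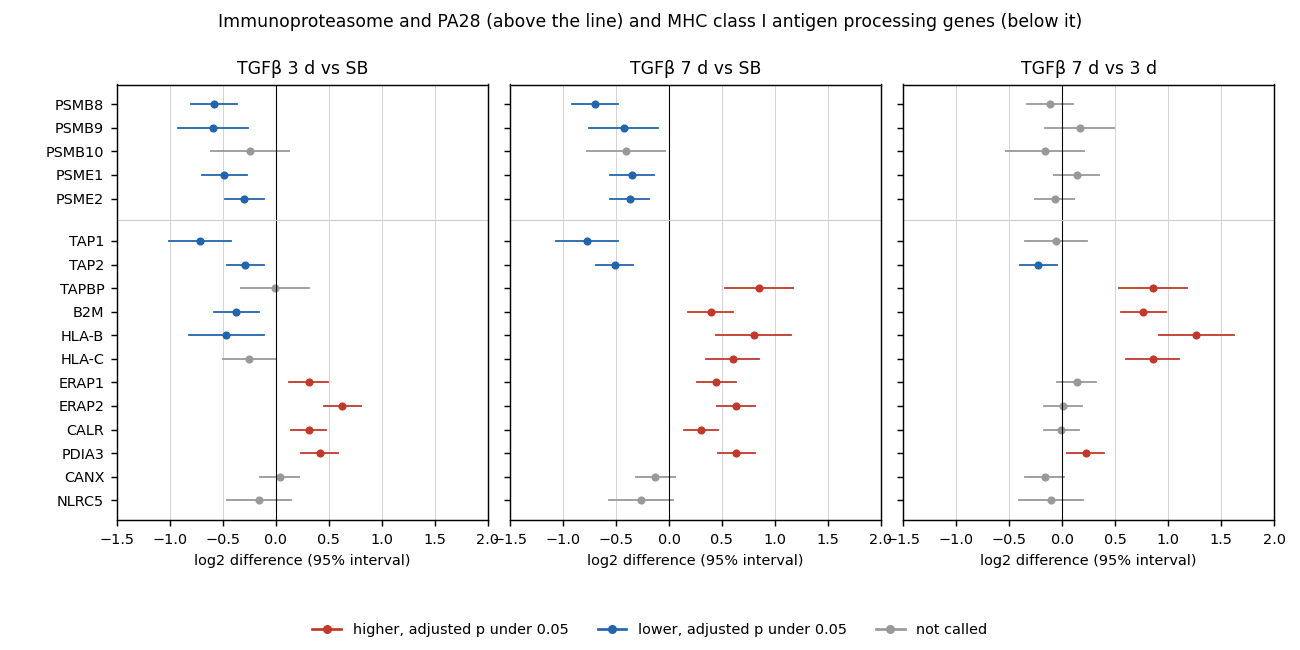
log2 difference with its 95% interval for the immunoproteasome and PA28 genes (top 5) and 12 of the 13 genes of MHC class I antigen processing (below them), colored by limma call. In the middle panel PSMB8, PSMB9, PSME1, PSME2, TAP1 and TAP2 are lower than SB while B2M, HLA-B, HLA-C and TAPBP are higher, and in the right panel none of the top 5 is called.

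Of 15 tested regulators of the interferon response, 2 were higher and 1 lower at 3 days, 4 higher and 2 lower at 7 days, and 5 higher and 1 lower between the time points. Their shares called higher, 13.3% and 26.7% against SB, were close to the 14.9% and 27.7% of all genes, those called lower were 6.67% and 13.3% (14% and 26.9% of all genes), and between the time points 33.3% were higher and 6.67% lower (17.0% and 16.2%). The receptor subunit IFNGR2 and the kinase JAK1 rose at both times, to log2 differences of 1.03 and 0.82 at 7 days. STAT2 and IRF9 rose between 3 and 7 days (0.62 and 0.78). IRF9 overlapped SB at 7 days, where the SB libraries were at 713 and 1444. CD74, one of the 5 leukocyte markers examined, fell from 249 and 1236 in SB to 48 and 53 at 3 days and 128 and 141 at 7 days and LCP1, another, rose (2.01 and 1.06), while PTPRC, CD3E and CD14 were at or near 0 in every library. What part the difference in CD74 has in the immunoproteasome values was not tested.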

How the data were processed

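Poly(A) RNA libraries (TruSeq RNA Sample Prep, which does not mark strand) of H2087-LCC cells were sequenced as read pairs. Per the labels and the study's methods, the authors checked reads with FastQC 0.11.5, aligned them to hg19 using STAR, counted unique alignments per gene by HTSeq 0.6.1p1 and normalized counts by library size with DESeq2 (the labels give 3.4 as its version). The deposited values are a score of this kind, normalized counts rounded to whole numbers; the study's methods give one approximate number of raw read pairs for all samples, but raw counts and the counted reads of each library are not given in the sources used here, so no count model was run and no counting interval is given. The annotation release was not given either. Reads that map to several places were left out by the authors, which can lower genes with near-identical copies: 17 of the 47 genes have a named pseudogene and 12 share exon bases with another gene, 6 of them on the other strand (GENCODE 44).

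Samples were grouped by their labels into 3 groups of 2. limma 3.58.1 (R 4.3.3) was fitted to log2(value + 1) of genes with a mean of at least 10, across all 6 libraries with group as the only term, an intensity trend and 3 residual degrees of freedom; p-values were adjusted by the Benjamini-Hochberg method over all 14395 genes in each comparison. Because of the added 1, differences of low genes are understated. The fit was tested on simulated data. Tables were made with pandas 2.3.3 and figures with matplotlib 3.10.9 (Python 3.11.15). The comparisons with SB share the SB libraries.

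The genes, their role groups, the further lists and the tests were chosen with earlier results of these data known. The text names the 5 immunoproteasome and PA28 genes, PSMB5, PSMB6, PSMB7, PSME3 and PSME4, in each role group the genes with the highest and lowest 7-day difference from SB, and genes called with a log2 difference beyond 0.5 in any comparison; others, named to complete a count or a role, were chosen after their values were seen. Alternatives were other pseudocounts (0.5 and 5), no filter or a mean of at least 50, rescaling to median-of-ratios size factors, to equal totals or to equal upper quartiles, no trend, only the 4 libraries compared, a replicate block, and each library left out. PSMA8, the testis form of an α subunit, was not analysed here, and single-gene values of some genes in the further lists are not reported here.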

Additional observations from a re-analysis of the deposited data

Results flagged for a closer look

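The difference between the 7-day and the 3-day effect of TGFβ, each against the shared SB libraries, is the comparison of 7 with 3 days itself, and genes named by rule for which limma called it are given here. Of the 26 constitutive genes called, all lower at 7 than at 3 days, the rule names PSMG3 (-0.60), PSMC3 (-0.56), PSMG1 (-0.52), PSMB7 (-0.43), PSMB6 (-0.42), PSMB5 (-0.38), PSMB3 (-0.37), PSMA3 (-0.37), PSMD2 (-0.34), PSMD3 (-0.33), PSME3 (-0.31) and PSMB1 (-0.24). The rule does not name PSMA7 (-0.47), PSMD12 (-0.46) and PSMD13 (-0.44), which were called as well. For PSMB6 the effects lay on opposite sides of 0, at 0.28 at 3 days and -0.15 at 7 days, and the second was not called. Of the partners of the proteasome, RPS27A (-0.58), ADRM1 (-0.56) and UCHL5 (-0.47) differed in the same direction.

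Among antigen processing genes the 7-day effect was above the 3-day effect for HLA-B (1.27), TAPBP (0.86), HLA-C (0.85), B2M (0.77) and PDIA3 (0.22), and below it for TAP2 (-0.22). PDIA3 and TAP2 passed narrowly (limma adjusted p = 0.0498 and 0.0492). Both calls were lost without the trend (0.139 and 0.11) and with the replicate block (0.0951 and 0.115). Among interferon regulators the 7-day effect was above the 3-day effect for IRF9 (0.78), STAT2 (0.62) and IFNGR2 (0.31). It was below for SOCS1 (-2.32), which had at most 20 normalized counts in any library. Of the markers of cell identity, CDH1 (-1.36), EPCAM (-1.01), KRT18 (-0.27) and LCP1 (-0.95) were lower at 7 than at 3 days. None of the 5 immunoproteasome and PA28 genes was among these.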

How the results depend on the processing

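PSMB8 kept both of its calls against SB, and PSMD2 both of its calls, under every alternative. PSMB9 at 3 days (-0.60) was not called without the filter (adjusted p = 0.0788) or without the trend (0.0691), and at 7 days (-0.43) likewise. Without the trend PSME2 at 3 days (-0.30) and PSME1 at 7 days (-0.35) were not called. PSMB10 at 7 days became called with median-of-ratios size factors (-0.42), with only the 4 libraries compared and with the replicate block (both -0.41). Leaving out each library in turn gave ranges against SB of -0.80 to -0.40 for PSMB9 at 3 days and -0.63 to -0.23 at 7 days, -0.58 to -0.24 for PSMB10 at 7 days, -0.36 to -0.23 for PSME2 at 3 days and -0.48 to -0.22 for PSME1 at 7 days. The libraries whose loss ended a call were SB replicate 2 for each of PSMB9, PSME1 at 7 days and PSME2 at 3 days, 3-day replicate 1 for PSMB9 and either 3-day library for PSME2 at 3 days, and either 7-day library for PSMB9 and 7-day replicate 1 for PSME1 at 7 days; PSMB10 at 7 days became called without either 3-day library or without 7-day replicate 1.

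The constitutive genes called higher at 3 days numbered 4. There were 2 without the filter, with equal totals, with only the 4 libraries compared and with the replicate block, and 1 without the trend. Without SB replicate 1 their share rose above that of all genes. The count lower at 3 days was 0, and 1 (PSMG3) with a pseudocount of 5, a minimum mean of 50 or equal totals, and 0 to 1 with a library left out. At 7 days the 20 called lower became 13 without the filter and 10 without the trend, and 6 to 30 with a library left out (6 without 7-day replicate 2). For 7 against 3 days the 26 became 11 and 7, and 5 to 30 (5 without 7-day replicate 2). The share of all genes called lower changed as well, and for 7 against 3 days the constitutive share stayed above it. The constitutive median at 7 days ran from -0.34 to -0.14, and at 3 days it crossed 0, from -0.05 to 0.12, with no test. No value with a call under either setting changed sign. Leaving out PSMD2, an alternative chosen after seeing the data, moved the constitutive medians to 0.04, -0.25 and -0.30. The cause of these changes was not tested.

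Same-numbered libraries did not deviate together: the correlation across genes of the difference between replicates 1 and 2 was 0.14 between SB and 3 days, -0.1 between SB and 7 days and -0.29 between the TGFβ time points. The replicate block is therefore only an alternative; it left 2 constitutive genes called higher at 3 days. Equal totals shifted the median of all genes at 3 days from -0.02 to -0.08, and the directions stated for PSMB8, PSMB9, PSME1, PSME2 and PSMD2 were the same. The counted reads of each library are unknown, so the share of counting error in the precision of low genes such as PSMB10 and PSMG4 cannot be given.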
